A study of Mus musculus with 16 samples.

Results

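The kidney genes that keep calcium, phosphate and vitamin D in balance were described in 16 mouse kidney RNA libraries. The set holds 10 genes, taken from the 57186 genes of the count table by their symbols: Slc34a1, Slc34a3, Cyp27b1, Cyp24a1, Vdr, Kl, Calb1, S100g, Trpv5 and Trpm6. Each symbol had an entry and all 10 were among the 25408 genes tested. All mice were males carrying Elmo1H/H, an allele pair that raises expression of the engulfment gene Elmo1, so no group here has normal Elmo1 and Elmo1H/H itself is shared by cases and controls. By the labels, 4 libraries came from non-diabetic Elmo1H/HIns2+/+ kidneys without B12 (ND_C) and 4 from the same genotype given vitamin B12 (ND_B12). The diabetic kidneys were Elmo1H/HIns2Akita/+, with 4 libraries without B12 (D_C) and 4 with it (D_B12). The Akita allele makes a misfolded insulin that harms pancreatic beta cells, so diabetes here is a whole-body state with low insulin. B12 was given in drinking water at 10 mg/kg per day and started when mice were 8 weeks old, for 8 weeks by the methods and for 16 weeks by the labels. By the methods, mice were 16 weeks old at sampling and had been fasted for 3 to 4 hours. That age leaves no room for the 16 weeks of B12 in the labels.

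The kidney recovers most of the phosphate and calcium that the glomeruli filter. In the proximal tubule, sodium-phosphate cotransporters in the brush border take up phosphate, and parathyroid hormone and FGF23, with its co-receptor klotho, lower that uptake. In the distal convoluted and connecting tubules, calcium enters through an apical channel, is carried across the cell by calbindins and leaves by an exchanger and a pump on the blood side. The proximal tubule also makes the active form of vitamin D with one hydroxylase and destroys it with another, and active vitamin D acts through its nuclear receptor on genes of calcium transport.

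Totals per library ran from 65271308 to 91771136 estimated counts, with the totals in D_C all above those in ND_C (85751266 to 91771136 against 72867148 to 84053153). Markers of the proximal, thick limb, distal convoluted, connecting and collecting, and intercalated segments were read in every library with 0 markers at 0. Values of the deposited counts did not all sit with their labels. When the 4 published group means of 175 genes were set against every possible set of 4 libraries, the nearest sets put 5 libraries in their labelled group and 11 in another. The median absolute log2 difference from the published means was 0.00016 to 0.00026 for these nearest sets. It was 0.033 to 0.050 for the next best sets and 0.038 to 0.293 for the labelled ones. The libraries labelled D_C and D_B12 were exchanged, apart from D_C 1, and 2 libraries, D_C 1 and ND_B12 4, changed diabetic status. Every group and direction below is that of the labels, so the direction of a B12 difference in diabetic kidneys depends on which grouping holds. Results are given with all 16 libraries and without D_C 1 and ND_B12 4. The libraries are numbered by the date in their names and the groups mostly follow each other in that order. Days after the first date ran from 0 to 14 in ND_C and 14 to 21 in ND_B12. They ran from 21 to 58 in D_C and 63 to 111 in D_B12. ND_C and D_C shared no date, nor did ND_B12 and D_B12, or D_C and D_B12, so group and date ran together in those comparisons. The 2 dates shared between groups joined ND_C 4 with ND_B12 1, and ND_B12 2, 3 and 4 with D_C 1. Values below are normalized counts, in which each library was scaled by its median-of-ratios size factor, unless per-length levels are named. Fold changes with their standard errors (SE) were fitted by edgeR's quasi-likelihood method over all genes, and a gene was called when its p-value, adjusted by Benjamini and Hochberg's procedure, was below 0.05.

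Levels were compared between genes per length, as CPM (counts scaled to a fixed library total) per kilobase of exon. Slc34a1, the main phosphate cotransporter of the proximal tubule, was the highest at 1060 ± 90.7 (SD, n = 16). S100g, which encodes calbindin-D9k, followed at 396 ± 77.3. Kl, which encodes klotho, had a per-length level of 97.6 ± 7.72, or 156 with its longest transcript as the length. These 3 genes kept this order in each of the 16 libraries. Calb1, which encodes calbindin-D28k, had a per-length level of 60.9 ± 19.2 and Vdr, the vitamin D receptor, one of 50.9 ± 5.61. Calb1 was above Vdr in 9 of 16 libraries, so these neighbours did not differ beyond their spread. Cyp24a1, the hydroxylase that inactivates vitamin D, had a per-length level of 23.9 ± 19.1 and Slc34a3, the second phosphate cotransporter, one of 12.5 ± 2.67, in this order in 11 of 16 libraries. The lowest levels were those of the calcium channel gene Trpv5 (5.09 ± 0.731), the magnesium channel gene Trpm6 (3.98 ± 0.598) and Cyp27b1, which makes active vitamin D (1.40 ± 0.514). Trpv5 was above Trpm6 in 15 of 16 libraries, and Trpm6 above Cyp27b1 in all 16.

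**Figure D1:**
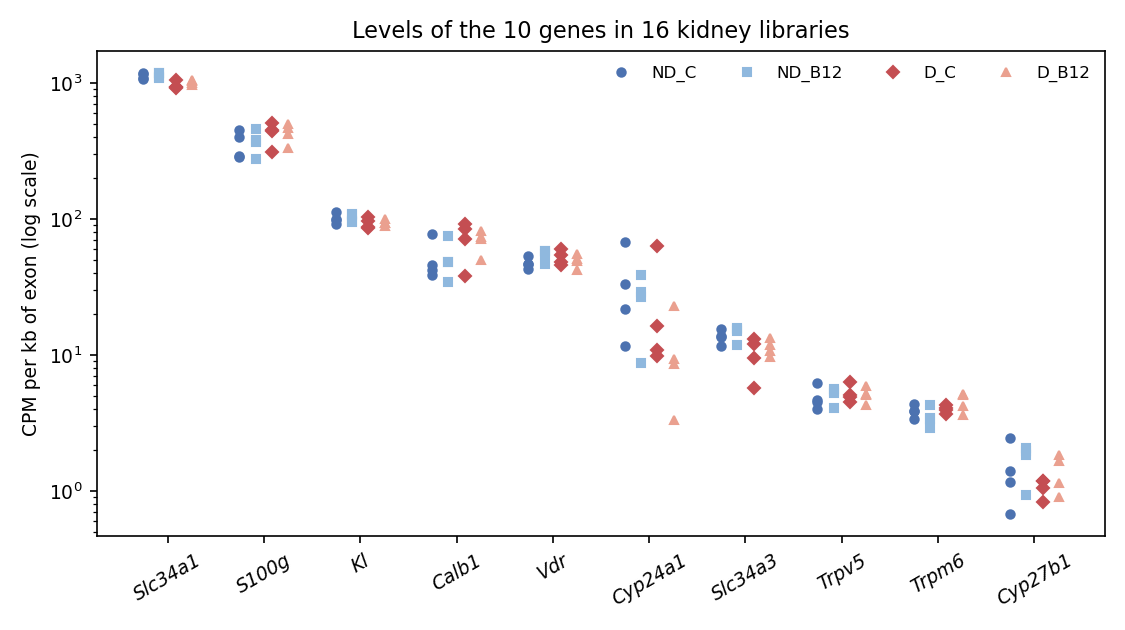
Per-length level of the 10 genes (CPM per kb of exon, log scale) in each of 16 kidney libraries, with the 4 libraries of each labelled group side by side; each point is 1 library. Slc34a1 lies near 1060 and Cyp27b1 near 1.40, and Cyp24a1 has the widest spread.

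The genes differed in how steady they were. Over the 16 libraries the highest normalized count was 1.33 times the lowest for Kl, 1.36 times for Slc34a1 and 1.42 times for Vdr. It was 2.60 times the lowest for Calb1, 2.78 times for Slc34a3 and 3.75 times for Cyp27b1. For Cyp24a1 it was 20.4 times the lowest, from 952 in D_B12 2 to 19419 in ND_C 4.

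Slc34a1 lies on chromosome 13 from 55546000 to 55563413 (GRCm39) and overlaps Pfn3 on the opposite strand. Slc34a3 lies on chromosome 2 from 25118910 to 25124376, with 0 overlapping genes. The 250 bases before the start of each gene in RefSeq are shown because these 2 cotransporters had lower mean counts in both comparisons of diabetic with non-diabetic kidneys, and that of S100g because it tracked Calb1. Capitals mark the letters AGGTCA or one of its variants GGTTCA and AGTTCA and GGGTCA on either strand, the half-sites that the vitamin D receptor and other nuclear receptors can bind.
Slc34a1, GRCm38.p6 chr13:55399398-55399647, strand plus: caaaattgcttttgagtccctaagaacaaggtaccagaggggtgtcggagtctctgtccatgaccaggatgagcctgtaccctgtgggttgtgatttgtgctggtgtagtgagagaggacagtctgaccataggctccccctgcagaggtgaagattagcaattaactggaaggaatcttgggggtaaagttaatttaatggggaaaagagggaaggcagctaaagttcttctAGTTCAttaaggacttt
Slc34a3, GRCm38.p6 chr2:25234235-25234484, strand minus: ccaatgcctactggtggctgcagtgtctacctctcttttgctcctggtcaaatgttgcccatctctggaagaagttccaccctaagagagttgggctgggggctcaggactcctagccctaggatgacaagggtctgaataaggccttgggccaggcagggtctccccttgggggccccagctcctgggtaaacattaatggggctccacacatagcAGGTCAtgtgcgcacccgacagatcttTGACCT
S100g, GRCm38.p6 chrX:162964600-162964849, strand minus: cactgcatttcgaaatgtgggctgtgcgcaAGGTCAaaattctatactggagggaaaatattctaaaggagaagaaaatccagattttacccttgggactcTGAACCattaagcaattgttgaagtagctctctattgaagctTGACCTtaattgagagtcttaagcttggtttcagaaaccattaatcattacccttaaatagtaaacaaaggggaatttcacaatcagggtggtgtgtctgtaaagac
The Slc34a1 stretch held 1 half-site, the Slc34a3 stretch 2 and the S100g stretch 3. Kl and Cyp27b1 also had lower means in both comparisons, and their stretches, with 1 and 0 half-sites, are not printed. The windows of 8 of the 10 genes were matched by symbol, and those of Cyp24a1 and Calb1 were not. Searched over 250 bases before and 50 after each start, any half-site was in 7 of these 8 windows, and in 43.7% of all 32851 RefSeq windows. AGGTCA alone was in the windows of Slc34a3 and S100g and in 16.3% of all windows. A pair of half-sites in the same direction with 3 bases between them was in 0 of the 8 windows and in 0.0396% of all windows. Such matches describe letters only.

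The phosphate cotransporters were lower in the kidneys labelled diabetic. Slc34a1 fell by 0.25 on the log2 scale averaged over untreated and B12-treated kidneys, and it was the only 1 of the 10 genes called. Slc34a3 was below its non-diabetic mean by a larger amount but with a larger spread, and it was called only in some of the alternative fits. Kl and the hydroxylases Cyp27b1 and Cyp24a1 also had lower means in diabetic kidneys, and Calb1, S100g and Trpm6 higher ones, without a call in this fit.

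In ND_C the Slc34a1 counts were 398950, 440677, 456163 and 402323, and in ND_B12 they were 429674, 409534, 447170 and 456428. In D_C they were 361910, 352718, 350123 and 336801, and in D_B12 they were 364591, 385787, 364526 and 391540. All 8 diabetic libraries lay below all 8 non-diabetic ones, D_C 1 and ND_B12 4 included. Groups that did not overlap in this way were seen for 0.386% of all genes tested. The means (± SD, n = 4) were 424528 ± 28336 in ND_C against 350388 ± 10374 in D_C, and 435701 ± 20674 in ND_B12 against 376611 ± 14114 in D_B12. Averaged over both treatments the diabetic level was 15.6% lower (log2 fold change -0.25 with SE 0.048 and adjusted p = 0.0178 by edgeR), and in that comparison 3.02% of all genes tested were called and 2.16% were called lower. The exact permutation test, two-sided and within treatments, gave p = 0.000408, the smallest that its 4900 rearrangements allow. In untreated kidneys the log2 fold change of Slc34a1 was -0.28 (adjusted p = 0.0504 by edgeR, SE 0.068), and in B12-treated kidneys it was -0.21 (adjusted p = 0.123 by edgeR, SE 0.068), with 0 of the 10 genes called in either, where 1.66% and 0.823% of all genes were. The difference between these effects was 0.06 (SE 0.096), which the interaction test of edgeR did not call (adjusted p = 0.804).

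The Slc34a1 call held in each fit that left out 1 library, with edgeR adjusted p-values between 0.00601 and 0.0459. Without D_C 1 and ND_B12 4 the log2 fold change was -0.24 (adjusted p = 0.00516 by edgeR, SE 0.046). With the date in the library names as a covariate it was -0.23 (adjusted p = 0.447 by edgeR, SE 0.112), which ended the call, with 0 of the 10 and 0% of all genes called. On the date shared by ND_B12 2, 3 and 4 and D_C 1, the D_C 1 count of 361910 lay below the other 3, which ran from 409534 to 456428. That is 1 diabetic library, too few to read as a group difference. D_C 1 and ND_B12 4, both on this date, are also the libraries whose diabetic status is in doubt. Summed proximal tubule markers, 7 genes, ran from 7664 to 9336 CPM in non-diabetic and from 7489 to 9961 in diabetic libraries, with 0 of the 7 called in this comparison. Of these 7 genes 6 were below zero, with a median log2 fold change of -0.12, and their part in the Slc34a1 value was not tested. In whole-kidney RNA, fewer cells of a type and less RNA per cell cannot be told apart.

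Slc34a3, whose product takes up phosphate with a different sodium ratio, had counts of 2545, 2239, 2645 and 2971 in ND_C and 2303, 2954, 2865 and 3050 in ND_B12. In D_C they were 2279, 1098, 1812 and 2228, and in D_B12 they were 2461, 2232, 1822 and 2021. The diabetic libraries were mostly lower, with D_C 2 lowest of all, but the groups overlapped. The average log2 fold change was -0.44 (adjusted p = 0.0668 by edgeR, SE 0.125), with -0.49 (SE 0.176) in untreated and -0.39 (SE 0.176) in B12-treated kidneys. Without D_C 1 and ND_B12 4 the average was -0.47 (SE 0.131) and passed the test (edgeR adjusted p = 0.0348). DESeq2 called it as well at -0.44 (adjusted p = 0.0110), one of 2 members it called on average, with 8.54% of the 21454 genes it gave an adjusted p-value. In untreated and in B12-treated kidneys DESeq2 called 1 member each, Slc34a1, with 7.83% and 5.22% of such genes.

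Kl lies on chromosome 5 from 150876072 to 150917284. Its klotho product lets FGF23 signal in the tubule. Counts ran from 67173 to 85474 in ND_C and from 70675 to 82222 in ND_B12, against 64417 to 77696 in D_C and 64442 to 73805 in D_B12. The ranges overlapped, and 3 of the D_C libraries lay within 64417 to 66109. The average log2 fold change of Kl was -0.16 (adjusted p = 0.165 by edgeR, SE 0.060). It did not pass in any of the alternatives run, where adjusted p-values by edgeR or DESeq2 were between 0.0902 and 0.275.

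Cyp27b1 lies on chromosome 10 from 126884119 to 126888875, and Cyp24a1 on chromosome 2 from 170324628 to 170339065, where it overlaps Pfdn4 on the opposite strand. Cyp27b1 counts were low, at 136 to 509 in ND_C against 174 to 240 in D_C, and 198 to 436 in ND_B12 against 182 to 380 in D_B12. The average log2 fold change of Cyp27b1 was -0.40 (SE 0.236), with overlapping groups and an edgeR adjusted p-value of 0.383. The 4 D_C libraries had the narrowest range of any group.

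Cyp24a1 counts were 3251, 6350, 9823 and 19419 in ND_C and 7807, 8228, 11177 and 2563 in ND_B12. In D_C they were 16687, 3152, 2803 and 4633, and in D_B12 they were 2604, 952, 2460 and 6525. D_C 1 and ND_B12 4, the libraries in doubt, lay on the far side of their groups, D_C 1 high and ND_B12 4 low. With all libraries the average log2 fold change of Cyp24a1 was -0.88 (adjusted p = 0.324 by edgeR, SE 0.472), and without these 2 it was -1.50 (adjusted p = 0.0311 by edgeR, SE 0.405). The 7 non-diabetic libraries left had a mean of 9436 ± 5078, and the 7 diabetic ones 3304 ± 1786. In untreated kidneys the Cyp24a1 value went from -0.51 (SE 0.662) to -1.46 (SE 0.584) when both were left out, and in B12-treated kidneys from -1.25 (SE 0.673) to -1.53 (SE 0.560), without a call (edgeR adjusted p-values of 0.136 and 0.160). Leaving out ND_C 4 alone turned the untreated value to 0.08.

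**Figure D2:**
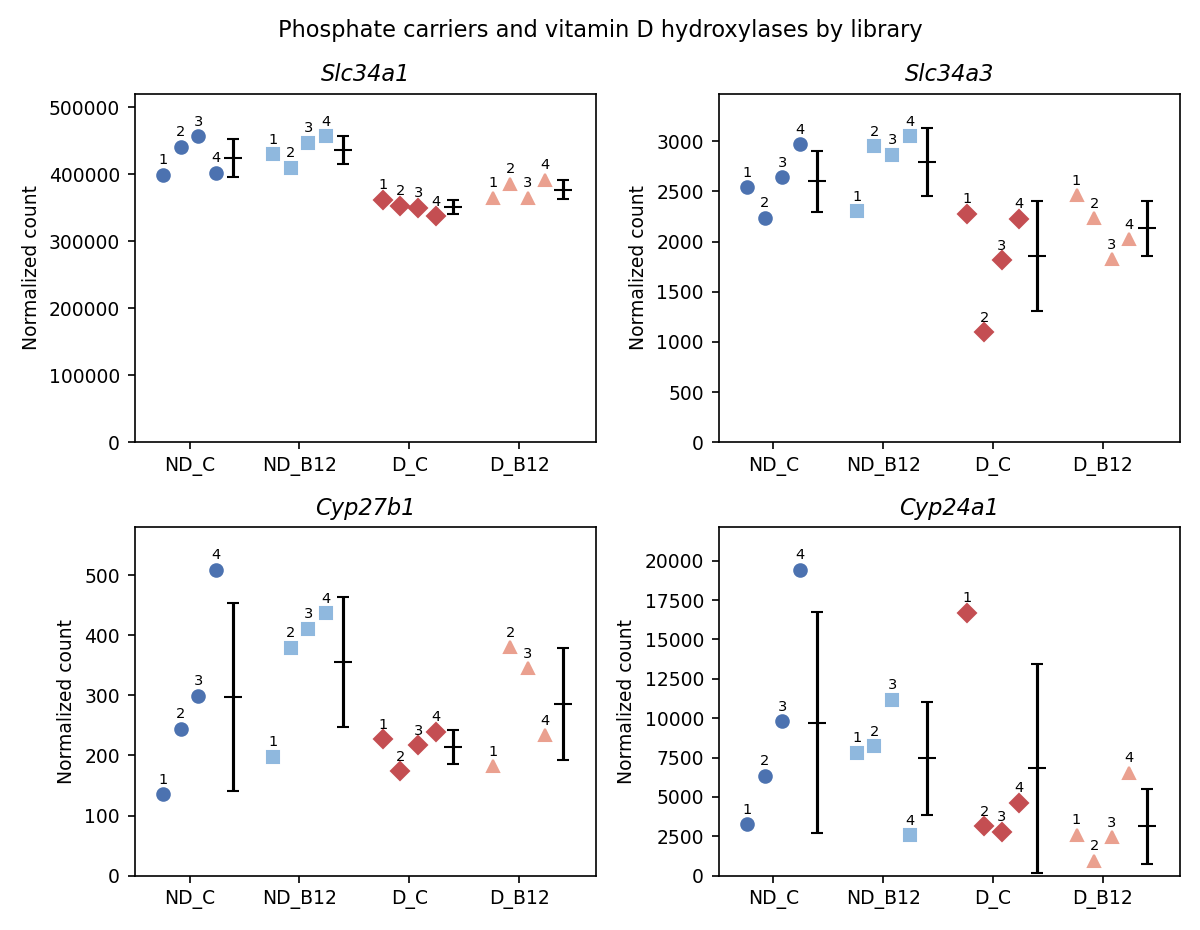
Normalized counts of Slc34a1, Slc34a3, Cyp27b1 and Cyp24a1 by labelled group; each numbered point is 1 library and black bars are mean ± SD (n = 4). The 8 diabetic Slc34a1 points lie between 336801 and 391540, below all 8 non-diabetic points, while D_C 1 and ND_C 4 are the 2 highest Cyp24a1 points.

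Vdr lies on chromosome 15 from 97752306 to 97808511 and overlaps Gm33690 and Gm62301 on the opposite strand. Its counts ran from 20216 to 24295 in ND_C against 20871 to 25332 in D_C, and from 21691 to 27029 in ND_B12 against 19089 to 24651 in D_B12. The receptor gene thus overlapped between all groups, and its average log2 fold change in diabetes was -0.05 (adjusted p = 0.753 by edgeR, SE 0.066, 95% interval -0.19 to 0.09).

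Among the calcium genes, Calb1 lies on chromosome 4 from 15881155 to 15908085 and its product ferries calcium through distal cells. In ND_C the Calb1 counts were 17686, 15439, 17268 and 30937, and in ND_B12 they were 14049, 18947, 19401 and 30147. In D_C they were 13881, 33739, 36110 and 27928, and in D_B12 they were 18951, 28235, 32122 and 28800. Of the diabetic libraries 6 were at 27928 or above, and of the non-diabetic ones 6 were at 19401 or below, with ND_C 4, ND_B12 4, D_C 1 and D_B12 1 as exceptions. D_C 1 had the lowest Calb1 count of all 16. The average log2 fold change of Calb1 was 0.42 (adjusted p = 0.280 by edgeR, SE 0.207) with all libraries, and 0.66 (adjusted p = 0.0193 by edgeR, SE 0.160) without D_C 1 and ND_B12 4. By treatment, values with all libraries were 0.46 (SE 0.293) in untreated and 0.39 (SE 0.293) in B12-treated kidneys.

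S100g lies on the X chromosome from 161744988 to 161747617 and overlaps Ctps2 on the opposite strand. Counts were 10672, 11404, 15783 and 17402 in ND_C and 10859, 14051, 14878 and 18004 in ND_B12. In D_C they were 11021, 17555, 19426 and 16696, and in D_B12 they were 12471, 16233, 18994 and 17770. Replicate 1 had the lowest count in each group. D_C 1 was the lowest diabetic library and ND_B12 4 the highest non-diabetic one. The average log2 fold change of S100g was 0.20 (adjusted p = 0.465 by edgeR, SE 0.140), and 0.34 (adjusted p = 0.104 by edgeR, SE 0.124) without these 2 libraries. It was 0.23 (SE 0.198) in untreated and 0.18 (SE 0.198) in B12-treated kidneys.

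Trpv5 lies on chromosome 6 from 41629107 to 41657703 and encodes the apical channel through which calcium enters. Its counts ran from 1073 to 1644 in ND_C against 1075 to 1656 in D_C, and from 1087 to 1484 in ND_B12 against 1076 to 1541 in D_B12. These ranges nearly coincided, and the average log2 fold change of Trpv5 was 0.01 (adjusted p = 0.972 by edgeR, SE 0.108, 95% interval -0.22 to 0.24). Trpm6 lies on chromosome 19 from 18727089 to 18869875, overlapping Gm59055 on the same strand and Gm55298 on the opposite one, and encodes a magnesium channel of the distal convoluted tubule. Trpm6 counts were 2422, 2501, 2232 and 2795 in ND_C and 1910, 2181, 2225 and 2790 in ND_B12. In D_C they were 2180, 2640, 2722 and 2473, and in D_B12 they were 2260, 2680, 3226 and 3292. D_B12 3 and 4 were the highest libraries. The Trpm6 average log2 fold change was 0.17 (adjusted p = 0.323 by edgeR, SE 0.090), and 0.26 (adjusted p = 0.0626 by edgeR, SE 0.082) without D_C 1 and ND_B12 4. In B12-treated kidneys it was 0.33 (adjusted p = 0.199 by edgeR, SE 0.127).

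**Figure D3:**
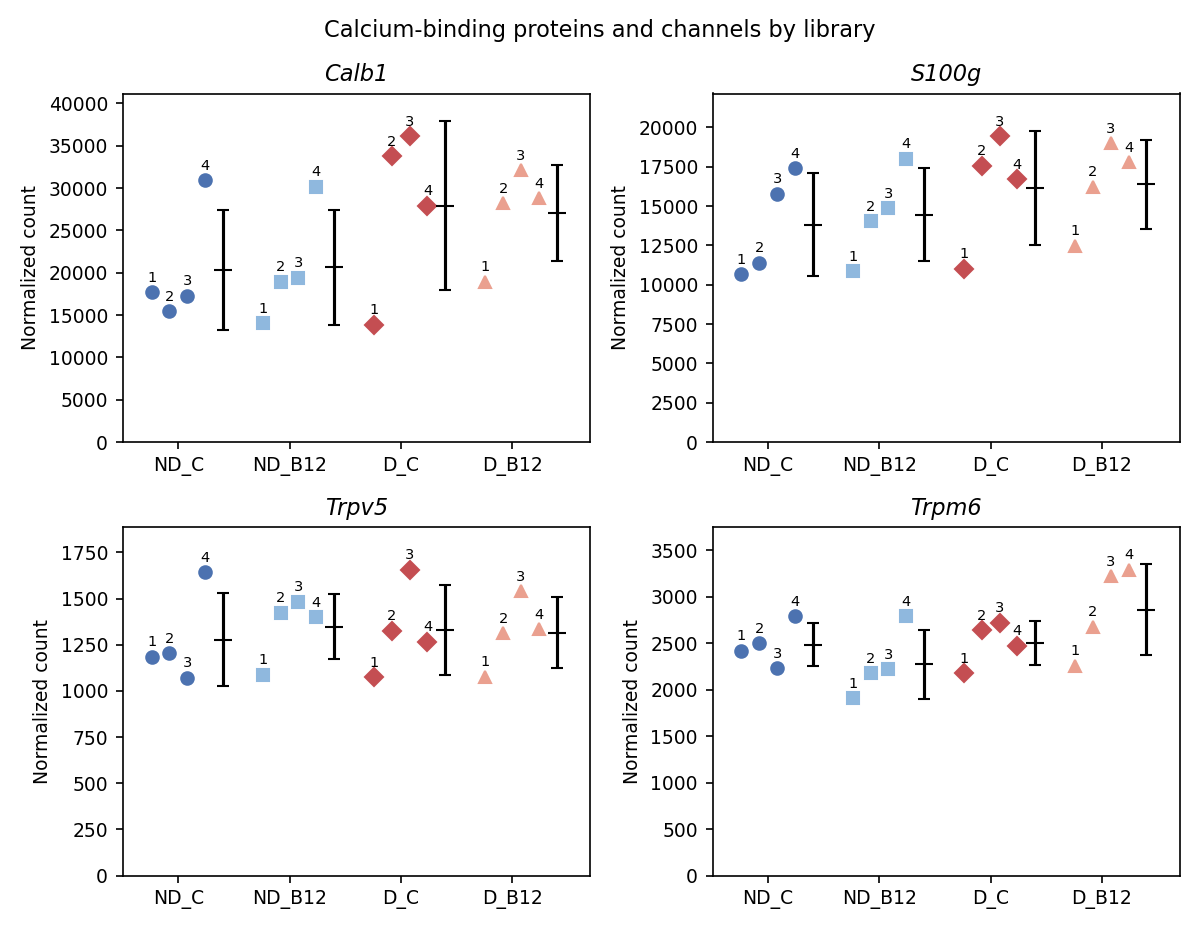
Normalized counts of Calb1, S100g, Trpv5 and Trpm6 by labelled group; each numbered point is 1 library and black bars are mean ± SD (n = 4). D_C 1 has the lowest Calb1 count (13881), and ND_C 4 and ND_B12 4 stand above the other non-diabetic libraries for Calb1 (30937 and 30147).

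Without D_C 1 and ND_B12 4, 4 of the 10 genes were called in the average diabetes comparison, where 10.2% of all genes were. These were Slc34a1, Slc34a3 and Cyp24a1, lower in diabetic kidneys, and Calb1, higher. In this fit every non-diabetic library was dated before every diabetic one, so date and diabetes cannot be told apart. Leaving out D_C 1 alone gave 2 called members, Slc34a1 and Slc34a3, with 6.79% of all genes. Without both, 1 of the 10 (Slc34a1, adjusted p = 0.0158 by edgeR) was called in untreated kidneys and 0 in B12-treated ones, where 8.57% and 2.8% of all genes were. With all 16 libraries the median log2 fold change of the 10 genes was -0.10, beside 0.01 over all genes tested. The summed level of markers of the connecting tubule and collecting duct, 6 genes, ran from 259 to 331 CPM in ND_C against 386 to 601 in D_C, and from 291 to 422 in ND_B12 against 302 to 497 in D_B12. The sums thus did not overlap in untreated kidneys and overlapped in B12-treated ones. Of the 6 genes 5 were above zero in untreated kidneys, where Aqp2 and Aqp3, water channels of the collecting duct, rose by log2 fold changes of 1.69 (adjusted p = 0.0436 by edgeR, SE 0.387) and 0.60 (adjusted p = 0.0397 by edgeR, SE 0.130). The mean normalized count of Aqp2 went from 5921 in ND_C to 19109 in D_C, the largest change in the sum. Scnn1b, Scnn1g and Hsd11b2 were at 0.25, 0.18 and 0.12 and Avpr2 at -0.20 in untreated kidneys, without a call. In that comparison 1.66% of all genes were called. In B12-treated kidneys 4 of the 6 were below zero and 0 were called, beside 0.823% of all genes. On average 1, Aqp2, was called, beside 3.02% of all genes, and the list median was 0.04. The interaction was called for 0 of the 6. Distal convoluted tubule markers, 5 genes, summed to 1623 to 2098 CPM in non-diabetic and 1670 to 2000 in diabetic libraries, with 0 of 5 called. The part of segment markers in the member values was not tested.

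**Figure D4:**
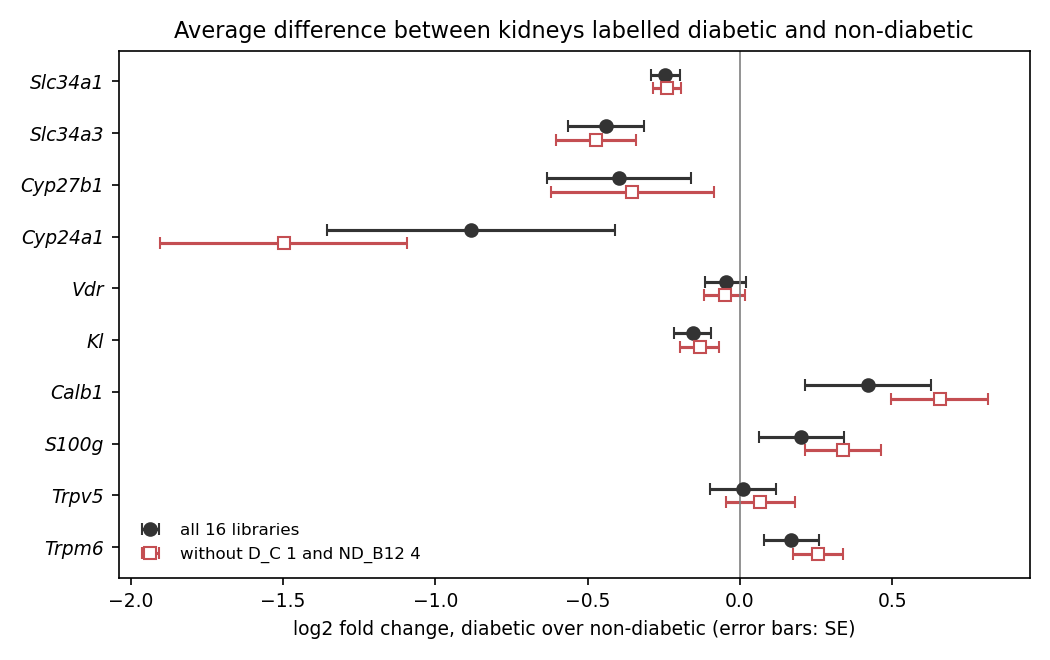
Log2 fold change of the 10 genes between kidneys labelled diabetic and non-diabetic, averaged over treatments; points are edgeR estimates and bars are SE, for all 16 libraries (filled circles) and for 14 without D_C 1 and ND_B12 4 (open squares). Cyp24a1 moves from -0.88 to -1.50 and Calb1 from 0.42 to 0.66, while Slc34a1 stays near -0.25.

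B12 treatment was compared within each genotype. In diabetic kidneys edgeR called 0 of the 10 genes, and 0 of all genes (0%), with 0 of the 10 and 13.6% of all genes below an unadjusted p-value of 0.05. DESeq2 called 0 of the 10 and 3.78% of the genes it gave an adjusted p-value. Slc34a1 was 7.59% higher in D_B12 than in D_C by the labels (log2 fold change 0.11 with SE 0.068 and adjusted p = 0.533 by edgeR). The 4 D_B12 counts of Slc34a1, from 364526, did not overlap the 4 of D_C, up to 361910, an arrangement seen for 6.58% of all genes (exact permutation test, two-sided, p = 0.0286, the smallest for 4 against 4). Other values for B12 in diabetic kidneys were 0.41 (SE 0.335) for Cyp27b1 and -1.12 (SE 0.671) for Cyp24a1, each with overlapping groups. With both doubted libraries left out, Slc34a1 was at 0.13 (adjusted p = 0.347 by edgeR, SE 0.065), Cyp27b1 at 0.45 (SE 0.380) and Cyp24a1 at -0.17 (SE 0.562). Leaving out D_C 1 alone moved Cyp24a1 to -0.15 (SE 0.613), so its larger value rested on that library. In non-diabetic kidneys edgeR again called 0 of the 10 and 0 of all genes (0%), and 1 of the 10 and 7.62% of all genes had an unadjusted p-value below 0.05. DESeq2 called 0 of the 10 and 0.0236% of the genes with its adjusted p-value. The 1 gene was Vdr, at a log2 fold change of 0.22 (adjusted p = 0.637 by edgeR, SE 0.094). The interaction of B12 with diabetes was called for 0 of the 10 and 0 of all genes (0%) by edgeR, with 0 of the 10 and 16.1% of all genes below an unadjusted 0.05. DESeq2 called it for 0 of the 10 and 4.62% of the genes it gave an adjusted p-value.

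The members were also compared with each other across libraries, as Pearson correlations of log2 CPM over the 16 libraries, which share depth, dates and groups. Calb1 and S100g had r = 0.91 (Spearman's rho 0.91), and without D_C 1 and ND_B12 4 r = 0.89. Of 15983 genes with enough counts, the one most like Calb1 was S100g, and the one most like S100g was Calb1. Calb1 also had r = 0.80 with Trpm6 and 0.75 with Trpv5. Trpv5 was most like Slc8a1, which encodes a sodium-calcium exchanger (r = 0.94, and 0.97 without D_C 1 and ND_B12 4), and Slc34a1 was most like Tcn2, which encodes transcobalamin 2, a carrier of vitamin B12 in blood (r = 0.94 with and without these libraries). Deviations from the group means, which remove the group differences, gave r = 0.73 for Slc34a1 with Tcn2 and 0.96 for Trpv5 with Slc8a1. For 5 other members the most similar genes were Gm5113 for Cyp27b1 (0.82), Pdilt for Cyp24a1 (0.88), Pde9a for Vdr (0.95), Ppa2 for Kl (0.88) and Gpr85 for Trpm6 (0.84).

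**Figure D5:**
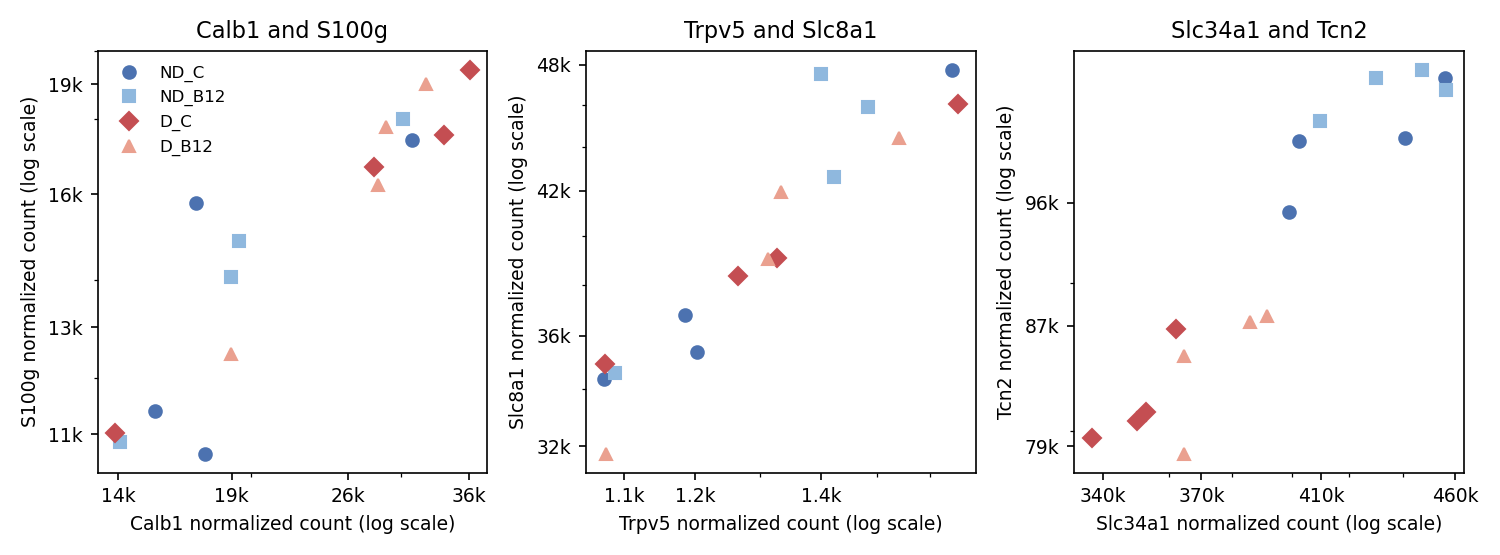
Normalized counts (log scales) of Calb1 against S100g, Trpv5 against Slc8a1 and Slc34a1 against Tcn2; each point is 1 of 16 libraries, with shape and colour by labelled group. The log2 levels follow each other with r of 0.91, 0.94 and 0.94, and only the third pair separates diabetic from non-diabetic libraries.

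The deposited transcript counts added up to the gene counts of each member. Calb1-201, Vdr-201 and Kl-201 held 99.5%, 99.4% and 97.4% of their genes' counts, and Cyp24a1, S100g and Trpv5 each had 1 transcript with counts. Slc34a1-201 held 80.6% and Slc34a1-205, also protein coding, 15.9%. For Cyp27b1, the coding Cyp27b1-201 held 55.6% and Cyp27b1-203, annotated for nonsense-mediated decay, 43.5%. The share of Cyp27b1-203 ran from 4.07% to 100% between libraries, and what sets this spread was not tested. For Trpm6 the share of its transcript annotated for nonsense-mediated decay ran from 0% to 41.1%.

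Transcripts annotated with a retained intron were a small share of 5 members. The Kl retained-intron share was 3.90%, 3.35%, 2.94% and 2.48% in ND_C and 2.37%, 2.16%, 2.40% and 1.51% in ND_B12. In D_C it was 2.17%, 2.14%, 1.79% and 1.53%, and in D_B12 it was 4.07%, 2.90%, 2.99% and 3.35%. All ND_C and D_B12 libraries thus lay above all ND_B12 and D_C libraries, an arrangement noticed after the values were seen and found in 0.196% of the 7135 genes with such transcripts. In the match to published means, all D_C and D_B12 libraries, ND_C 3 and ND_B12 1 changed treatment group. Which treatment the higher shares go with thus depends on the grouping. The other 4 members overlapped between these groups. For 7 of the 8 retained-intron transcripts of the 5 genes, the mean shares of ND_C and D_B12 were both above those of ND_B12 and D_C, as they were for 42.2% of the 14769 retained-intron transcripts of all genes tested. These shares were not tested, and what sets them was not tested.

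Other genes of the same pathways were described by their lists. Of 17 phosphate genes 16 were tested, and in the average diabetes comparison 2 fell and 0 rose, where 3.02% of all genes were called and 2.16% fell, with a list median of -0.04 beside 0.01 over all genes. Pth1r, the receptor of parathyroid hormone, fell by 0.21 on the log2 scale (adjusted p = 0.0375 by edgeR, SE 0.050), and Slc17a1, a phosphate and urate carrier, by 0.20 (adjusted p = 0.0190 by edgeR, SE 0.041). Nherf1, a scaffold for the phosphate cotransporters, fell in B12-treated kidneys by 0.33 (adjusted p = 0.0487 by edgeR, SE 0.073) and was at -0.17 on average (edgeR adjusted p = 0.0773). In untreated kidneys Pth1r alone of this list fell, by 0.30 (edgeR adjusted p = 0.0485). Of all genes, 1.66% were called in untreated and 0.823% in B12-treated kidneys. Without D_C 1 and ND_B12 4, 4 phosphate genes were lower and 1 higher on average, in a fit that called 10.2% of all genes.

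Of 18 calcium genes 16 were tested, and 2 rose and 1 fell on average, again beside 3.02% of all genes called, with a list median of 0.07 beside 0.01 over all genes. Trpv6, a second apical calcium channel, rose by a log2 fold change of 0.89 (adjusted p = 0.0182 by edgeR, SE 0.176), from normalized means of 63.7 in ND_C and 63.9 in ND_B12 to 152 in D_C and 93.0 in D_B12. Casr, the calcium-sensing receptor, fell by 0.45 (adjusted p = 0.0382 by edgeR, SE 0.109), and Stim1, a sensor of calcium stores, rose by 0.29 (adjusted p = 0.0448 by edgeR, SE 0.074). In untreated kidneys Trpv6 rose by 1.25 (adjusted p = 0.0340 by edgeR, SE 0.249) and Stim1 by 0.44 (adjusted p = 0.0469 by edgeR, SE 0.105), where 1.66% of all genes were called. In B12-treated kidneys 0 of the list and 0.823% of all genes were called. The interaction of diabetes and B12 was called for 0 of the 16. When both libraries were left out, 5 calcium genes were higher and 1 lower on average, beside 10.2% of all genes called, with Casr at -0.59 (SE 0.074) and Trpv6 at 1.01 (SE 0.152).

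Of 15 magnesium genes all 15 were tested and 0 were called on average, with 7 below an unadjusted p-value of 0.05 by edgeR, as were 19.4% of all genes. Arl15, a regulator of magnesium transport, rose in untreated kidneys by 0.42 (adjusted p = 0.0340 by edgeR, SE 0.083), where 1.66% of all genes were called. The magnesium list had a median of 0.02 on average. Leaving out both libraries in doubt gave 3 magnesium genes higher and 3 lower on average, with 10.2% of all genes called. Of 18 vitamin D genes 17 were tested, and 2 fell and 0 rose on average, where 2.16% of all genes fell, with a median of -0.06. These were Dab2, an adaptor of the endocytic receptors that recover filtered vitamin D, at -0.28 (adjusted p = 0.0200 by edgeR, SE 0.057), and Pdia3, a disulfide isomerase also known as a membrane binder of active vitamin D, at -0.21 (adjusted p = 0.0488 by edgeR, SE 0.055). With both doubted libraries left out, 1 vitamin D gene was higher and 2 were lower on average, in the fit with 10.2% of all genes called.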

How the data were processed

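RNA was measured in kidneys of 16 mice, 4 for each of 4 labelled groups. Per the methods and labels, the authors aligned paired 50 bp reads with STAR to GRCm39 with GENCODE annotation and deposited estimated counts per gene and per transcript from StringTie and its prepDE script, as whole numbers. These depend on a read length setting, and strand was assigned from intron motifs, with the strand use for unspliced reads not given in the sources used here, so overlapping genes are uncertain. Rounding changed nothing, and 0 columns lacked a sample. The biological replicates are separate mice by their labels. Library totals were 65271308 to 91771136, and the common biological coefficient of variation was 0.201, so spread between mice limited precision more than counting did. Log2 correlations between libraries were 0.972 to 0.985, and no 2 libraries were duplicates.

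Genes with at least 100 counts in all (25408 of 57186) were tested in R 4.3.3 with edgeR 4.0.16 (TMM, glmQLFit and glmQLFTest, 16 libraries, 4 group means, 12 residual degrees of freedom, Benjamini-Hochberg at 0.05, two-sided). Comparisons were diabetes without B12, with B12 and averaged, B12 in either genotype, and the interaction. Alternatives were DESeq2 1.42.0, upper-quartile normalization, other count filters, fits with the label date or with the replicate number, the compared groups alone, libraries left out, another gene length and another transcript filter. The label date stands in each library description, and what it marks is not given in the sources used here. A result of the search for similar genes is not reported here. Likeness used log2 CPM with a prior count of 2, over genes with a mean above 0. Gene positions are from GENCODE on GRCm39, and promoter windows from RefSeq on GRCm38.p6. Tests were tried on simulated data. Tables and plots used Python 3.11.15, scipy 1.17.1 and matplotlib 3.10.9.

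The members, pathway lists (phosphate, calcium, magnesium, vitamin D), marker lists and motifs were chosen with earlier results of these data known. All members are named. Of a pathway list, genes called in any comparison are named, at most 4 by smallest p-value, and for each member the gene with the highest correlation. Markers of podocytes, B and plasma cells, T cells, macrophages, adipocytes, muscle, adrenal gland and parathyroid or thyroid tissue were summed as well. Group means in the study's supplement were used only to match libraries.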

Additional observations from a re-analysis of the deposited data

Results flagged for a closer look

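In 40 groups of 4 libraries (10 genes in 4 groups), 3 single libraries stood apart by Dixon's test, where chance gives about 1 in 20 groups. The Cyp24a1 normalized count was 16686.6 in D_C 1, while the other D_C libraries ran from 2802.93 to 4632.97. The Calb1 normalized count was 30936.8 in ND_C 4, with the other ND_C libraries from 15438.5 to 17685.5. The Kl normalized count was 77696.4 in D_C 3, with the other D_C libraries from 64416.6 to 66108.6.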

How the results depend on the processing

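The direction of the average diabetes difference in Slc34a1, Slc34a3, Cyp27b1, Cyp24a1, Vdr and Kl was the same in every alternative run. With the label date as a covariate, 0 of 10 members were called on average, all 10 were below zero in each diabetes comparison and 8 of 10 for B12 in diabetic kidneys. Of the values given above, these turned: on average Calb1 (-0.52), S100g (-0.52), Trpv5 (-0.53) and Trpm6 (-0.31), in untreated kidneys Calb1 (-0.19) and S100g (-0.27), in B12-treated kidneys Calb1 (-0.86), S100g (-0.78) and Trpm6 (-0.31), and for B12 in diabetic kidneys Cyp27b1 (-0.14); the cause was not tested. Calls on average numbered 2 with DESeq2 and 4 without D_C 1 and ND_B12 4, beside 1 in the full fit, and 1 to 2 with 1 library left out (2 without D_C 1). In untreated kidneys Slc34a1 was called, 1 of 10 beside 0, by DESeq2, with upper-quartile normalization, with filterByExpr and without D_C 1 and ND_B12 4, and 0 to 1 genes were called with 1 library left out. In B12-treated kidneys DESeq2 called 1. Leaving out 1 library, Trpv5 on average ran from -0.048 to 0.085 and Cyp24a1 in untreated kidneys from -1.47 to 0.076. With the longest annotated transcript as gene length, per-length levels were 1244 for Slc34a1, 156 for Kl, 65.8 for Vdr and 4.69 for Trpm6, and with all transcripts counted the shares of Slc34a1-201, Vdr-201 and Calb1-201 were 80.5%, 99.4% and 99.5%. Over all genes, the replicate numbers did not pair the libraries. Same-numbered libraries of different groups had correlations of deviations from -0.183 to 0.168, with 3 of 24 over 0.1. Of 16 libraries, 5 correlated best with their own number. Among the members, S100g was lowest in replicate 1 of each group. Calb1, Trpv5 and Trpm6 were lowest in replicate 1 of ND_B12, D_C and D_B12, but not of ND_C. With the replicate number as a block, 1 of 10 members was called on average, Slc34a1, at an edgeR adjusted p-value of 0.0416, and 0 in each other comparison. The average SE in that fit was 0.068 for S100g and 0.151 for Calb1, against 0.140 and 0.207 in the full fit. The SE was larger than in the full fit for Slc34a1 (0.054) and Cyp24a1 (0.504). Shares of all genes called are not given here for the replicate block, upper-quartile and filterByExpr fits. Nor are they for fits with 1 library left out, except D_C 1 on average. Without those shares, the counts of called members in these fits cannot be set against all genes. Group values rest on 4 mice.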

Other observations

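D_C 1 and ND_B12 4, the 2 libraries whose diabetic status differs between the labels and the published means, did not sit on the same side for all genes. For Slc34a1, D_C 1 (361910) lay within the 7 other diabetic libraries (336801 to 391540) and ND_B12 4 (456428) just above the 7 other non-diabetic ones (398950 to 456163). For Tcn2 they were at 86788 and 105080, D_C 1 within the range of the 7 other diabetic libraries but above the other D_C ones, and ND_B12 4 within that of the other ND_B12 ones. For Calb1, D_C 1 (13881) lay below the 7 other diabetic libraries (18951 to 36110) and also below the non-diabetic ones (14049 to 30937). For Casr, D_C 1 was at 6739, above the other diabetic libraries, and ND_B12 4 at 4588, below the other non-diabetic ones.

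Summed markers of B and plasma cells, 6 genes, ran from 9.80 to 46.7 CPM in non-diabetic and from 4.06 to 13.0 in diabetic libraries. Summed thick limb markers, 5 genes, were at 3326 to 3912 CPM in D_B12 and at 3719 to 5601 in the other groups. Podocyte markers ran from 293 to 409, intercalated cell markers from 106 to 153, macrophage markers from 40.6 to 68.8, T cell markers from 1.65 to 5.32 and adipocyte markers from 3.11 to 148. Markers of skeletal muscle ran from 0.33 to 2.24, of adrenal gland from 3.65 to 7.61 and of parathyroid and thyroid tissue from 0.25 to 0.79.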
